A study of Mus musculus with 8 samples.

Results

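The genes described here build and carry the glycans that selectins bind, measured in CD4+ T cells from a mouse model of colitis. They are 9 genes: the carrier proteins Selplg, Cd44 and Spn, the fucosyltransferases Fut4 and Fut7, the branching and extension enzymes Gcnt1 and B4galt1, and the sialyltransferases St3gal4 and St3gal6. Each is represented by the probe set (the group of array probes summarised into 1 value) that carries that gene symbol alone and has the highest mean over all arrays. All 9 were found among 22180 genes with such a probe set. Of these, 8 were among the 13308 genes past a filter on low levels, and Fut4 lay just under it.

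The compared cells were Irak1-/- CD4+ T cells with the CD45.2 form of the leukocyte antigen CD45 and wt CD4+ T cells with the CD45.1 form. Both came from C57BL/6 mice, were CD4+ cells and were injected intraperitoneally in equal numbers into the same Rag1-/- recipients, which have no T or B cells of their own. After 14 days, CD3+CD4+ cells of each CD45 form were sorted from the mesenteric lymph nodes, and each of 4 replicate experiments pooled 2 recipients and gave 1 Irak1-/- and 1 wt array. The genotypes therefore differ in Irak1 and in the CD45 form together, and effects of these cannot be told apart. The labels give no age for the mice.

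A selectin ligand is a sialyl Lewis x type sugar on a protein backbone, and it lets a leukocyte roll on the vessel wall through P-selectin and E-selectin. The sugar is made in the Golgi apparatus by a fixed order of enzymes: a core 2 branch is opened, extended with galactose, capped with sialic acid and finished with fucose. In mouse T cells the branching enzyme and fucosyltransferase VII are known to be induced during differentiation towards effector cells, and the ligands they make help effector cells to enter inflamed skin and gut.

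None of the 8 tested genes passed an adjusted p under 0.05 between Irak1-/- and wt cells (limma, Benjamini-Hochberg over all genes), where 0.0751% of all genes passed, 0.0676% higher and 0.00751% lower. At an unadjusted p under 0.05, 1 of the 8 was higher and 1 lower, where 2.88% of all genes were higher and 3.82% lower. The core 2 enzyme Gcnt1 had the largest positive difference, 0.39 on the log2 scale (SE 0.152, adjusted p = 0.696), and the sialyltransferase St3gal4 the largest negative one, -0.36 (SE 0.136, adjusted p = 0.670). The carriers had differences between -0.17 and -0.05, and the fucosyltransferase Fut7 had -0.01 with a 95% confidence interval of -0.26 to 0.24. Differences are Irak1-/- minus wt from a fit with the batch pair as a block, on the log2 scale.

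The start-site sequences of 4 genes are shown because they belong to the pair with the largest differences in opposite directions, Gcnt1 and St3gal4, and to the carriers Cd44 and Spn, whose lowest pair difference lay, like that of Selplg, in pair 3. They come from RefSeq on build GRCm38.p6, cover 250 bases before to 50 after an annotated start, and are written 5′ to 3′ on the strand of the gene. The windows are chr19:17372795-17373094 for Gcnt1, chr9:35116815-35117114 for St3gal4, chr2:102901616-102901915 for Cd44 and chr7:127137774-127138073 for Spn, all on the minus strand. Capitals mark matches to any of 5 motifs on either strand: the NF-kappaB consensus, TCACAC for the T-box core, GGGCGG for Sp1, CGGAAG for Ets factors and TATAAA.
Gcnt1: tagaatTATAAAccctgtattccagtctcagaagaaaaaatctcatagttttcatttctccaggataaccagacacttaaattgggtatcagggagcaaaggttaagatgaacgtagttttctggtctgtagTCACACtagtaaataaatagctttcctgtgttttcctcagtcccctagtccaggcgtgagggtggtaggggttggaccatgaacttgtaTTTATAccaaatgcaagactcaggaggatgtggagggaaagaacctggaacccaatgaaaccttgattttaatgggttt
St3gal4: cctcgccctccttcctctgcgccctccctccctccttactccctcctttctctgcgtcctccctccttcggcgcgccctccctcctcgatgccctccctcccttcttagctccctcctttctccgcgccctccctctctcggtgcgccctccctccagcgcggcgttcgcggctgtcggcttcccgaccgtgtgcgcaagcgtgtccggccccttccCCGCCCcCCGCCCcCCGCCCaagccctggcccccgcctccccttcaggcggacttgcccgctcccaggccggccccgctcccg
Cd44: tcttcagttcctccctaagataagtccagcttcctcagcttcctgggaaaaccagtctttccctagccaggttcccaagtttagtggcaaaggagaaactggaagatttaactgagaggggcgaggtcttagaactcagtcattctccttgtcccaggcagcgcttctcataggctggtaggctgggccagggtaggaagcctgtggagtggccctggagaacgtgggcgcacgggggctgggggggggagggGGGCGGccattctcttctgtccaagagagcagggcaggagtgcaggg
Spn: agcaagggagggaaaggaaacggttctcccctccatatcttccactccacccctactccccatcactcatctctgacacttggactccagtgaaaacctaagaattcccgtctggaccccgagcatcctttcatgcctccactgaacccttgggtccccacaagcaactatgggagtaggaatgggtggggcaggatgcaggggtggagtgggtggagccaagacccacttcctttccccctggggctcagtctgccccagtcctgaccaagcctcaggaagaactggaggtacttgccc

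The printed windows differed in base composition and in the motifs they held. The Gcnt1 window, the outermost of 3 annotated starts, had 40.7% C and G bases and a T-box core 118 bases before the start. It held TATAAA 244 bases before the start and, on the other strand, 29 bases before it. The Gcnt1 windows not printed had 58.7% C and G bases with 16 CG pairs, and 52.0% with 3 CG pairs. Neither held any of the 5 motifs. How far Gcnt1 differs from St3gal4 in these letters thus depends on the Gcnt1 start shown. The St3gal4 window had 74.0% C and G bases, 31 CG pairs and 3 GGGCGG matches on the opposite strand within 33 bases of the start. In Cd44 the 1 match was GGGCGG, 3 bases after the start, and Spn held none of the 5 motifs. Over all 32851 such windows, GGGCGG was found in 35.7%, TCACAC in 14.5%, TATAAA in 13.6%, CGGAAG in 16.9% and the NF-kappaB consensus in 8.46%, and the median share of C and G was 52.7%. Of the members, 8 had entries, with 12 windows in all. The single NF-kappaB match among them lay in the second St3gal6 window, 123 bases before its start. No marked match in the printed windows overlapped another, and a match is a description of letters, not of binding.

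Whether the arrays hold what the labels say was checked first. T cell markers were present at like levels, with Cd3e at 10.69 in Irak1-/- and 10.73 in wt arrays and Cd4 at 8.92 in Irak1-/- and 9.04 in wt arrays (means, n = 4 each). The probe set for Irak1 read 6.84 ± 0.167 in Irak1-/- and 6.77 ± 0.332 in wt arrays (SD, n = 4 each), and since no source used here gives the deleted part of the gene, it does not check the genotype. The Irak1-/- array of replicate 3 stood apart, with correlations of 0.957 to 0.970 with the others across genes, where the remaining 7 arrays had 0.976 to 0.986 among themselves. Array medians ran from 4.25 to 4.31, and the number of arrays limits the precision of every value. Myeloid markers were higher on the Irak1-/- arrays. Of 22 on the array, 20 were tested, 4 passed upwards and 0 downwards, where 0.0676% of all genes passed upwards and 0.00751% downwards. The summed linear level of the 22 ran from 1130 to 1975 in Irak1-/- and from 559 to 660 in wt arrays. Of the 20, 19 had a difference above 0, and Itgax had -0.59, lower in all 4 pairs (adjusted p = 0.501, limma). Lyz2, the lysozyme of macrophages, averaged 8.0 in Irak1-/- and 3.84 in wt arrays. With H2-Ab1 (7.88) and Tyrobp (7.87), it had the highest Irak1-/- means of the 22. Of the 22, Cd14, Clec7a, Csf1r, Cybb, Mpeg1 and Ms4a7 had a mean under every array median. Markers of NK cells, innate lymphoid cells and CD8 T cells, of which 0 of 11 passed in either direction, summed to 3271 to 4559 in Irak1-/- and 4882 to 5453 in wt arrays. Nkg7, Klrd1 and Klrc1 had the highest levels of the 11, with wt means of 11.51, 9.90 and 9.74. Klrb1c and Ncr1 had a mean under every array median. Of the 11 differences, 4 were above 0 and 7 below. B cell markers summed to 80.8 to 98.1 in Irak1-/- and 78.0 to 112 in wt arrays, and granulocyte markers to 166 to 517 in Irak1-/- and 122 to 190 in wt arrays. Of 9 granulocyte markers, 4 were tested and 0 passed, with 2 differences above 0 and 2 below. S100a8 had the largest, 2.62 (adjusted p = 0.0635, limma). Camp, Csf3r, Elane, Ly6g, Ngp and Retnlg had a mean under every array median, as did the B cell markers Blnk, Cd79a, Ebf1 and Ms4a1. Myeloid cells also express selectin ligand genes, and the part of these other cells in the differences that follow was not tested.

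Carriers are the protein backbones that present the glycan. Selplg encodes PSGL-1, the main ligand of P-selectin. Its probe set 17451437 on chromosome 5 read 10.67, 10.67, 10.09 and 10.46 in Irak1-/- replicates 1 to 4, against 10.52, 10.83, 10.61 and 10.60 in wt. The groups overlapped, and the lowest of all 8 values was Irak1-/- replicate 3, the array that stood apart. The log2 difference was -0.17 (95% confidence interval -0.46 to 0.13, adjusted p = 0.893), lower in 3 of 4 pairs. A second Selplg probe set, 17440768, gave pair differences of 0.23, -0.13, -0.51 and -0.13, beside 0.14, -0.16, -0.52 and -0.14 for the first. Both probe sets were highest in pair 1 and lowest in pair 3, and both were read from the same RNA. The difference of the first was -0.05 without replicate 3 and -0.27 without replicate 1.

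Cd44 encodes the hyaluronan receptor of activated T cells, forms of which carry E-selectin ligands. It read 7.47, 7.86, 6.89 and 7.09 in Irak1-/- arrays of replicates 1 to 4 and 7.30, 7.79, 7.38 and 7.53 in wt arrays. Irak1-/- replicates 3 and 4 lay under every wt value, while replicate 2 was high in both genotypes. The difference was -0.17 (95% confidence interval -0.50 to 0.15, adjusted p = 0.904), lower in 2 of 4 pairs. It was -0.07 without replicate 3, -0.08 without replicate 4 and -0.29 without replicate 1. Spn encodes CD43, a sialomucin that in mouse effector T cells serves as an E-selectin ligand. Its levels were 9.22, 9.31, 8.78 and 9.17 in Irak1-/- and 9.13, 9.32, 9.13 and 9.07 in wt arrays, with replicate 3 of Irak1-/- the lowest. The difference of -0.05 (95% confidence interval -0.32 to 0.22, adjusted p = 0.966) turned to 0.06 without replicate 3.

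All carriers had their lowest pair difference in pair 3, at -0.52 for Selplg, -0.49 for Cd44 and -0.35 for Spn. In pair 1 they were at 0.14, 0.17 and 0.09. The enzymes St3gal4 (-0.64) and B4galt1 (-0.24) also had their lowest difference in pair 3, and the other enzymes in other pairs. Over all genes, pair 3 had the lowest median difference, -0.06. It also had the widest spread over all genes, with an interquartile range of 0.45 against 0.29 to 0.35 in the other pairs. Myeloid markers had mean differences of 0.63, 0.89, 1.15 and 1.02 in pairs 1 to 4, largest in pair 3. T cell markers had -0.18 in pair 3 and between -0.04 and 0.10 in the others. These values stand beside the carriers' pattern, and their part in it was not tested. In sorted populations, fewer cells of a type and less RNA per cell cannot be told apart.

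**Figure D1:**
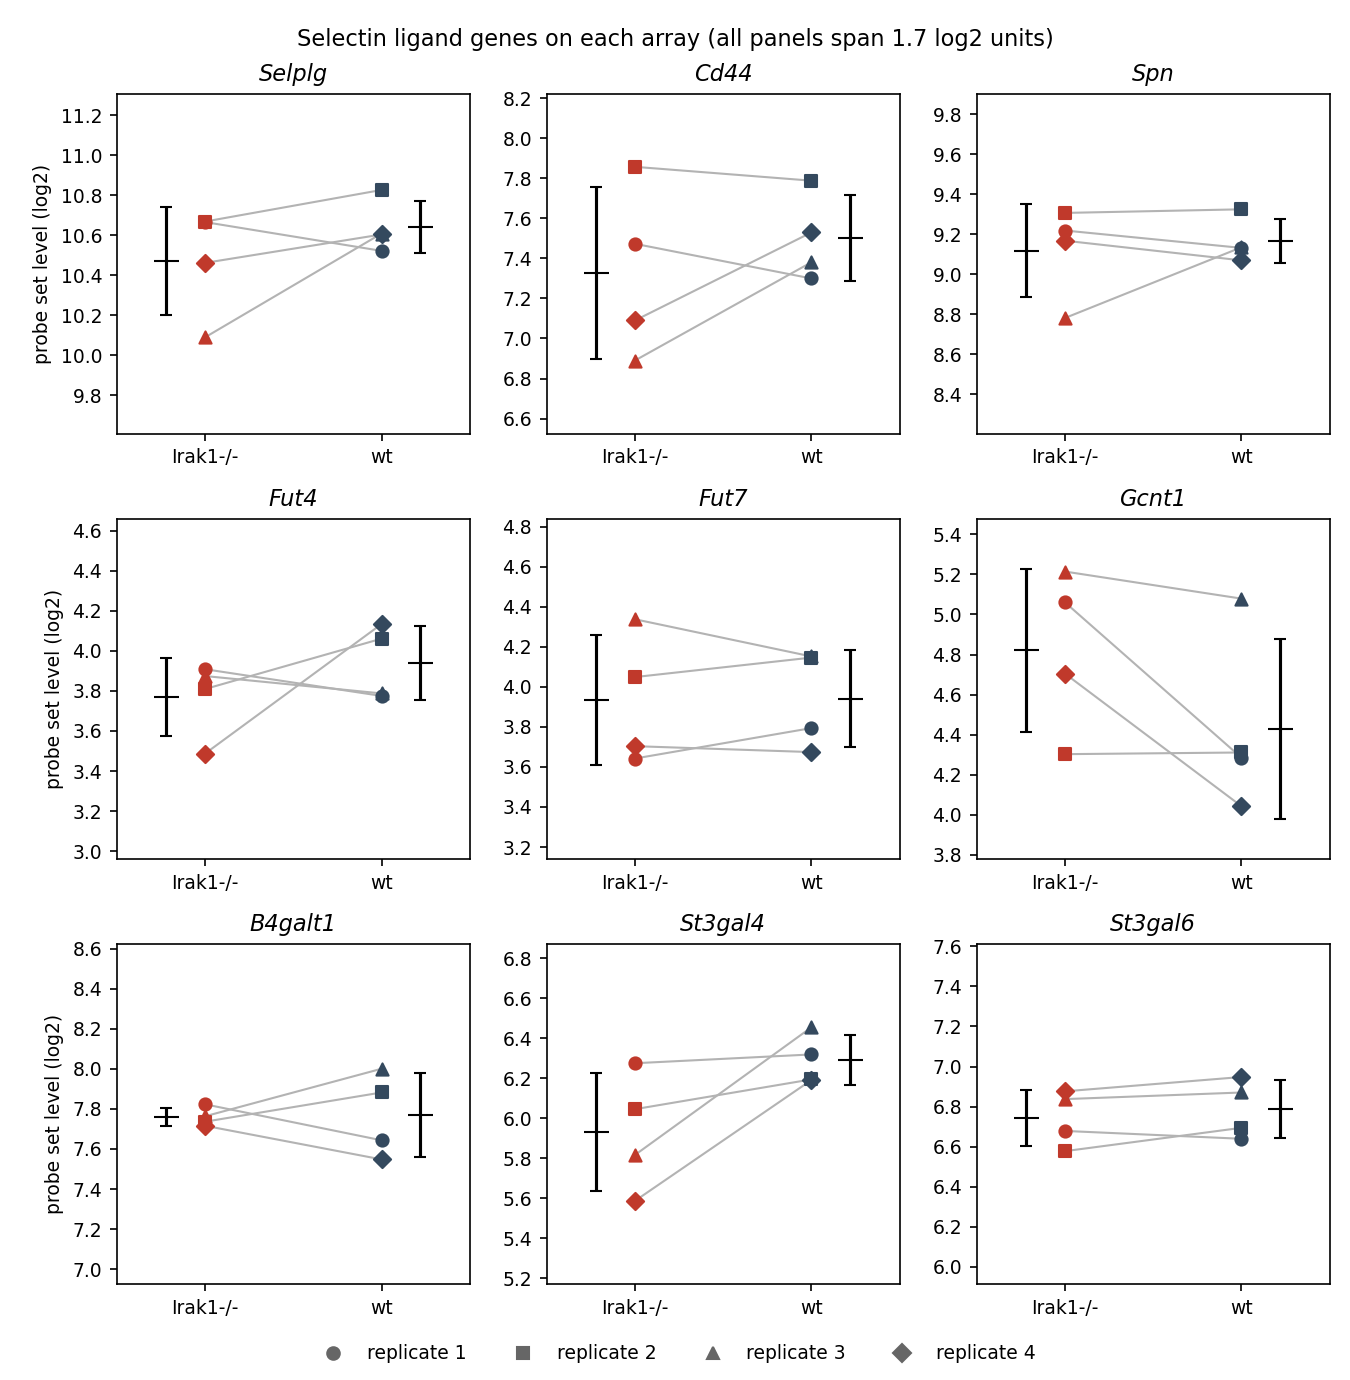
Probe set level on the log2 scale (y axis) of the 9 genes in Irak1-/- (red, left) and wt (dark, right) arrays. Marker shapes are replicates 1 to 4, grey lines join arrays of a batch pair, and bars beside the points are means ± SD (n = 4); both groups overlap in every panel, and the 3 carriers in the top row share a low Irak1-/- replicate 3.

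Fucosyltransferases add the last sugar. Fut7 encodes fucosyltransferase VII, on which selectin ligands of mouse T cells largely depend. It read 3.64, 4.05, 4.34 and 3.70 in Irak1-/- replicates 1 to 4, against 3.79, 4.15, 4.15 and 3.67 in wt. Both genotypes were high in replicates 2 and 3 and low in 1 and 4, and the genotypes differed by less than the batches did. The difference was -0.01 (SE 0.111, 95% confidence interval -0.26 to 0.24, adjusted p = 0.993), so the interval spans 0.835-fold to 1.18-fold. The level was under the array's own median on 7 of 8 arrays, and the mean of 3.94 lay just above the filter at 3.90. The file gives no array background, which leaves the distance of this level from background unknown.

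Fut4 encodes fucosyltransferase IV, the partner enzyme that also makes the Lewis x sugar. It read 3.91, 3.81, 3.87 and 3.49 in Irak1-/- arrays and 3.78, 4.06, 3.79 and 4.13 in wt arrays, under the array median on all 8. Its mean of 3.85 was just below the filter, so it was fitted only without the filter, where the difference was -0.17 (SE 0.154, adjusted p = 0.947). The pair differences were 0.13, -0.25, 0.09 and -0.65, in no common direction.

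Branching and extension enzymes come before the cap. Gcnt1 encodes the core 2 enzyme that opens the branch on which PSGL-1 carries its ligand. It read 5.06, 4.30, 5.21 and 4.70 in Irak1-/- replicates 1 to 4, against 4.28, 4.31, 5.08 and 4.04 in wt. Pairs 1 and 4 had differences of 0.78 and 0.66, while pairs 2 and 3 had -0.01 and 0.14, and replicate 3 was high in both genotypes. The fitted difference of 0.39 corresponds to 1.31-fold (95% confidence interval 1.03 to 1.67, unadjusted p = 0.0310, adjusted p = 0.696 by limma), higher in 3 of 4 pairs. It was 0.26 without replicate 1 and 0.52 without replicate 2, and in the fit without pairs the unadjusted p was 0.135 at the same difference (limma). The wt mean of 4.43 lay close to the array medians.

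B4galt1 encodes the galactosyltransferase that extends the branch with lactosamine. Its levels were 7.82, 7.74, 7.76 and 7.72 in Irak1-/- and 7.64, 7.88, 8.0 and 7.55 in wt arrays. The Irak1-/- arrays kept within 7.72 to 7.82 (SD 0.0466), inside the wt range of 7.55 to 8.0 (SD 0.209). The means thus differed by -0.01 (95% confidence interval -0.28 to 0.26, adjusted p = 0.993), and the pairs split, with 2 higher and 2 lower. The difference in spread was not tested.

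Sialyltransferases add the sialic acid cap. St3gal4 encodes ST3Gal-IV, one of the enzymes that caps lactosamine in leukocytes. It read 6.27, 6.05, 5.82 and 5.59 in Irak1-/- replicates 1 to 4, against 6.32, 6.19, 6.45 and 6.19 in wt. The gene table places the long noncoding RNA genes Gm51705 and 4930581F22Rik in overlap with St3gal4, and the positions of the probes are not known here. The wt arrays lay close together, and 3 of 4 Irak1-/- arrays were below all of them, while Irak1-/- replicate 1 lay within the wt range. Pair differences were -0.04, -0.15, -0.64 and -0.60. The fitted difference of -0.36 corresponds to a 1.28-fold lower level (95% confidence interval 1.04 to 1.59, unadjusted p = 0.0276, adjusted p = 0.670 by limma). Of the 9 genes this was the 1 that moved the same way in all 4 pairs, as 14.2% of all genes tested did. In a fit without replicate 3 the difference was -0.27 (unadjusted p = 0.101, limma), and without replicate 4 it was -0.28 (unadjusted p = 0.123, limma).

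St3gal6 encodes ST3Gal-VI, which caps the same chains and contributes to selectin ligands on mouse leukocytes. It read 6.68, 6.58, 6.84 and 6.88 in Irak1-/- and 6.64, 6.69, 6.87 and 6.95 in wt arrays. Replicates 3 and 4 were higher than 1 and 2 in both genotypes, and pair differences stayed within -0.12 and 0.04. The difference was -0.05 (95% confidence interval -0.28 to 0.19, adjusted p = 0.961). The 2 sialyltransferases thus had differences of -0.36 and -0.05, and the difference between them was not tested.

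**Figure D2:**
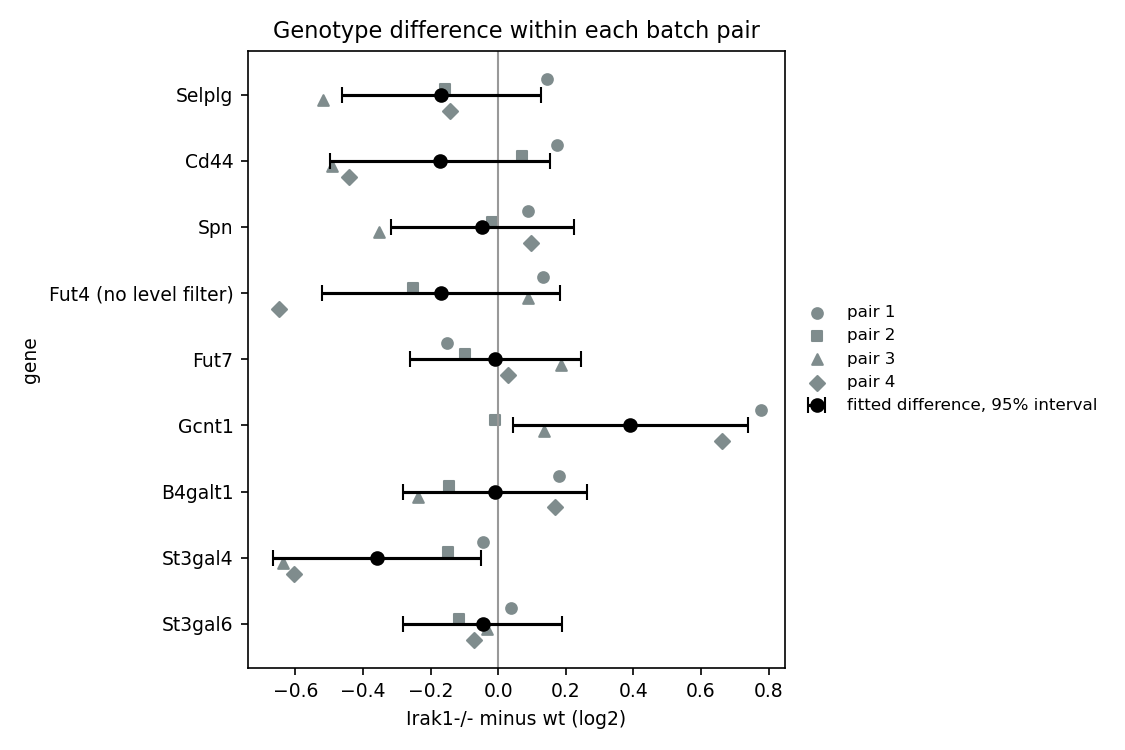
Irak1-/- minus wt on the log2 scale (x axis) for each gene (y axis), with grey markers for the 4 batch pairs and a black point with its 95% confidence interval for the limma fit. The intervals of Gcnt1 (0.04 to 0.74) and St3gal4 (-0.67 to -0.05) leave out 0 before adjustment, and the other 7 include it; Fut4 comes from the fit without the level filter.

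The counts for the set stand beside those over all genes. At an unadjusted p under 0.05 there were 1 higher and 1 lower of 8 tested, Gcnt1 and St3gal4, where 6.7% of all genes reached it, 2.88% higher and 3.82% lower. Differences over 0.3 in size were found for the same 2, against 7.46% of all genes. The groups did not overlap for 0 of the 9, against 3.04% of all genes. The median difference of the 8 was -0.05, beside -0.03 over all genes, and 1 of 8 was above 0 and 7 below, where 41.9% of all genes were above 0. With the standard errors of these 8 genes, a difference would have needed a size of 0.785 (St3gal6) to 1.15 (Gcnt1) to pass, so smaller differences could not have been called with 4 pairs.

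The members did not share a direction from pair to pair. In pair 1, 7 of the 9 were above 0 (median 0.13), and in pair 2, 8 were below 0 (median -0.12). Pair 3 had 6 below 0 with a median of -0.24, and pair 4 had 5 below 0 with a median of -0.07. Over all genes, 50.5%, 57.3%, 57.4% and 49.7% were below 0 in pairs 1 to 4.

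Most of the variation of several members, enzymes and carriers, followed the batch pair and not the genotype. The pair accounted for 93.1% of the sum of squares over 8 arrays for Fut7 and 91.5% for St3gal6, where the median over all genes was 47.3%. The pair's share was 68.6% for Cd44, 64.8% for Spn and 62.4% for Gcnt1, and lowest for St3gal4 (29.8%) and Fut4 (6.74%). Genotype took 0.0292% for Fut7 and 3.30% for St3gal6. St3gal4 had the highest genotype share of the 9, at 45.4%, followed by 21.8% for Gcnt1 and 21.2% for Fut4, beside a median of 7.96% over all genes. For Fut4, 72.1% followed neither. These shares are descriptions from 8 arrays, and the recipients and the hybridization of a batch cannot be told apart.

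**Figure D3:**
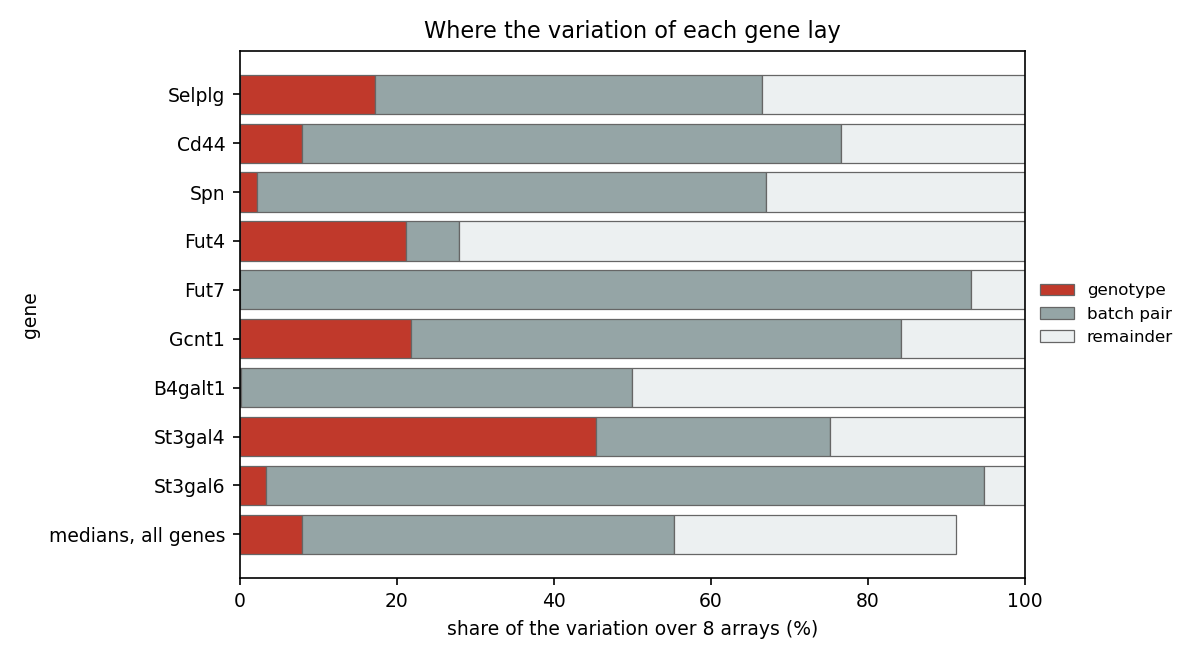
Share of the sum of squares over 8 arrays (x axis, percent) that followed genotype (red), batch pair (grey) or neither (light) for each gene (y axis), with the medians over all genes tested in the bottom bar, which need not add up to 100. Fut7 and St3gal6 lie almost wholly in the batch share, and St3gal4 has the longest genotype share among the 9 genes.

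Genes whose levels followed Fut7 and Gcnt1 most closely over the 8 arrays were picked from the 13308 genes past the level filter, as a description. For Fut7 they were Ncoa1 (r = 0.936), Trp53bp1 (r = 0.936) and Has3 (r = 0.931), and 13 genes exceeded 0.9. For Gcnt1 they were Ppp2r5e (r = 0.962), Zhx2 (r = 0.949) and Napg (r = 0.936), and 21 exceeded 0.9. The 8 arrays form 4 pairs that share recipients, so they are not independent, and no p is given. The names are the top of a wide search over few arrays, and how many r over 0.9 arise by chance was not tested.

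The wider pathway was covered by 92 further genes, from the enzymes that start O-glycans to sulfation, sugar supply and the selectins, of which 90 were analysed and 71 tested. None passed in either direction after adjustment, against 0.0751% of all genes. At an unadjusted p under 0.05 (limma) there were 0 higher and 4 lower of the 71, where 2.88% of all genes were higher and 3.82% lower, 6.7% in all. The median difference was -0.00044, with 35 above and 36 below 0. Of the 71, 9 moved the same way in all 4 pairs, against 14.2% of all genes.

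Galnt3, which starts O-glycans by adding N-acetylgalactosamine to serine and threonine, had the smallest p of these. It read 6.13, 5.57, 5.70 and 5.68 in Irak1-/- replicates 1 to 4, against 6.65, 6.23, 5.94 and 6.42 in wt. Each pair was lower in Irak1-/-, with Irak1-/- replicate 1 above the wt value of replicate 3, and the difference was -0.54 (SE 0.120, adjusted p = 0.318). The 11 enzymes of O-glycan start and core 1 had a median of 0.03, with 7 above and 4 below 0. C1galt1, which makes the core 1 sugar that Gcnt1 branches, had -0.17 (adjusted p = 0.871), and its chaperone C1galt1c1 had -0.03 (adjusted p = 0.982).

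Other sialyltransferases counted 13 tested, with a median of -0.01. St6galnac3 had -0.34 (adjusted p = 0.559) and St6galnac6 -0.32 (adjusted p = 0.791), both of which add sialic acid in another linkage. St3gal2, which caps core 1 chains, had -0.30 (adjusted p = 0.741). St3gal1, which caps core 1 and so competes with the branching enzyme, had -0.12 (adjusted p = 0.930). Among the 13, 6 were above 0 and 7 below.

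Substrate supply gave 12 tested genes with a median of -0.05. Nans, which makes sialic acid phosphate, had -0.26 (adjusted p = 0.742), and Slc35c1, the Golgi carrier of GDP-fucose, had -0.12 (adjusted p = 0.948). Of 8 tested enzymes of core 2 and lactosamine extension, B4galt5, a related galactosyltransferase, had the smallest p, with -0.33 (adjusted p = 0.778), and the median was -0.09. Sulfation, which P-selectin binding of PSGL-1 needs on tyrosines, had 6 tested genes with a median of 0.01. Its tyrosine enzymes Tpst1 and Tpst2 had 0.20 and -0.10, and the sugar sulfotransferase Chst2 had -0.07. The other fucosyltransferases had a median of 0.02 over 3, the N-glycan branching enzymes -0.05 over 8, and the sialidases and fucosidases 0.08 over 4.

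Other carriers had a median of 0.13 over 6 tested genes. Lamp2, a lysosomal glycoprotein, had 0.22 (adjusted p = 0.804) and was the 1 of 71 genes of the wider set whose groups did not overlap, against 3.04% of all genes. Lamp1, its close relative, had 0.26 (adjusted p = 0.775). Glg1, the E-selectin ligand ESL-1, had 0.05 (adjusted p = 0.962). Cd24a, a P-selectin ligand on some cells, had 0.26 (adjusted p = 0.930), with pair differences from -1.02 to 0.96. Lysosomal proteins are abundant in myeloid cells, whose markers were higher on the same arrays, and their part was not tested. The endothelial selectins Sele and Selp were under the level filter, at means of 3.54 and 3.32 in Irak1-/- and 3.40 and 3.39 in wt arrays.

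**Figure D4:**
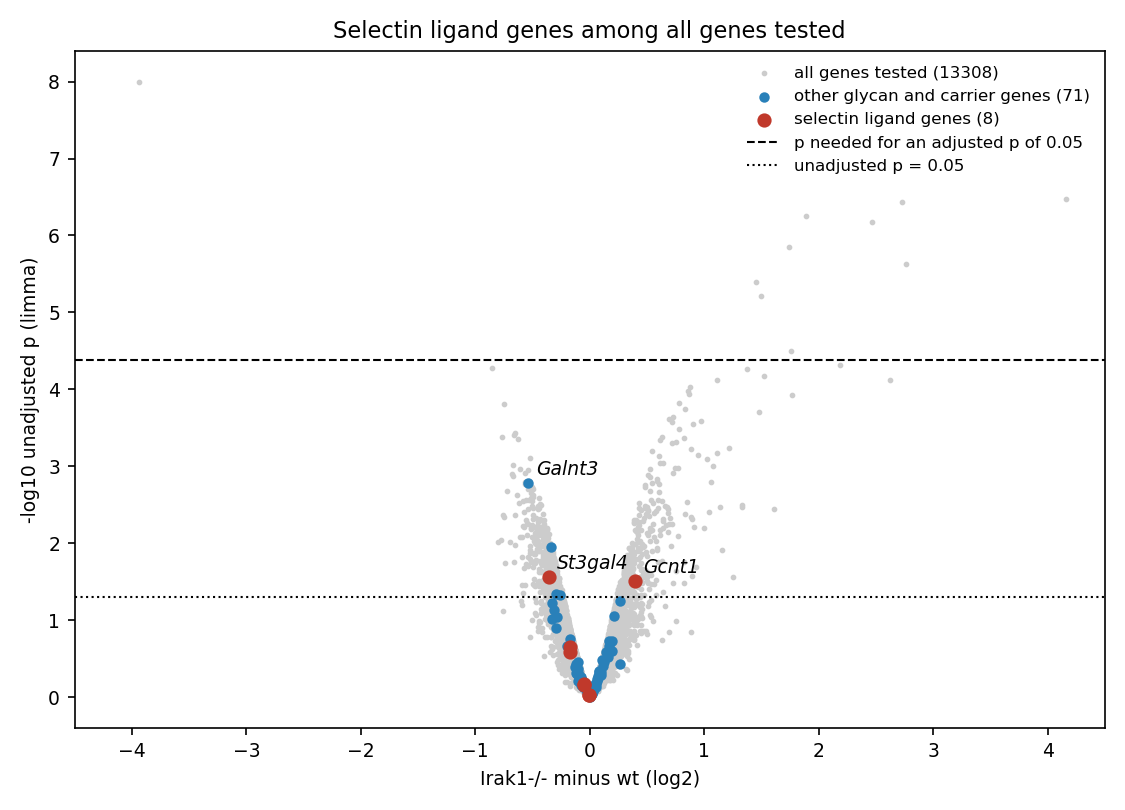
Difference Irak1-/- minus wt on the log2 scale (x axis) against -log10 of the unadjusted limma p (y axis) for 13308 genes (grey), 71 further glycan and carrier genes (blue) and the 8 tested selectin ligand genes (red). No red or blue point reaches the dashed line, the p needed for an adjusted p of 0.05; Gcnt1, St3gal4 and 4 blue points lie above the dotted line at an unadjusted p of 0.05.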

How the data were processed

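Total RNA of sorted cells (purity above 99.5%, per the labels) was labelled with biotin and hybridized to Affymetrix arrays, per the labels' protocols. The deposited values are log2 levels of 41345 probe sets on 8 arrays, and no source used here states how the authors corrected, summarized or normalized them. Probe sets were named through the platform annotation (23521 with 1 symbol, 1814 with several, 16010 unnamed here). For the 23328 matched by gene identifier to the GRCm38.p6 gene table, the symbol was taken from that table. Genes under the 40th percentile of mean level were left out, which left 13308 with a lowest mean of 3.90. The genotype comparison used limma 3.58.1 under R 4.3.3 (lmFit, eBayes, two-sided) with the batch label as a block, and p-values were adjusted over all genes by Benjamini-Hochberg. The batch label pairs the arrays, whose cells shared recipients. Deviations from group means correlated at 0.18, 0.14, 0.20 and 0.08 within pairs 1 to 4. By these deviations, Irak1-/- replicates 2, 3 and 4 were closest to the wt array of their own pair. Irak1-/- replicate 1 was closest to wt replicate 2. The procedure was tested on simulated data.

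Named genes are the 9 members, a fixed panel of the wider lists, the 8 wider genes with the smallest p, and the 3 genes most like Fut7 and Gcnt1. Members and lists were chosen with earlier results of these data known. Alternatives were other pairing, normalization, filters, probe set rules, eBayes settings and left-out replicates.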

Additional observations from a re-analysis of the deposited data

Results flagged for a closer look

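Dixon's test for 1 stray value in a group of 4 was applied to 28 named genes in both groups, and chance alone marks about 1 group in 20. None of the 9 selectin ligand genes was marked, and 3 values of other genes were. Selp, P-selectin, read 3.69 in Irak1-/- replicate 3, against 3.18 to 3.22 in the other Irak1-/- arrays (ratio of gap to range 0.934), all under the array medians. Tpst2 read 8.17 in wt replicate 2, against 7.85 to 7.89 in the other wt arrays (ratio 0.858). Chst2 read 4.59 in wt replicate 4, against 5.36 to 5.43 in the other wt arrays (ratio 0.922).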

How the results depend on the processing

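No selectin ligand gene and no gene of the wider set passed the adjusted threshold under any alternative run, including the fit with no replicate block, where both counts were 0. Over 111 refits of the members, 104 kept the sign. Changes to the block, filter or eBayes settings alone left the fitted difference as it was, so those refits could not turn a sign. The probe set rules likewise left it unchanged for genes with a single probe set. Without pairs, the adjusted p was 0.988 for Gcnt1 and 0.963 for St3gal4. The 7 turned signs were in differences near 0. Spn turned to 0.0557 without replicate 3 and 0.0659 without the Irak1-/- array of replicate 3 in an unpaired fit, its left-out range being -0.0948 to 0.0659. Fut7 turned to 0.0394 without replicate 1 and 0.0211 without replicate 2 (range over left-out pairs -0.0733 to 0.0394, and -0.143 without the Irak1-/- array of replicate 3). B4galt1 turned to 0.0082 with quantile normalization, 0.0368 without replicate 2 and 0.0673 without replicate 3 (range -0.0718 to 0.0673). Gcnt1 ran from 0.26 to 0.52 and reached an unadjusted p under 0.05 in 8 of 13 refits, and St3gal4 from -0.46 to -0.27 in 11 of 14. Genes called over all genes numbered 10, with 16 under the random replicate block, 16 under median centring, 16 with trend and robust settings, and from 7 to 17 with replicates left out; the causes were not tested. Fut4 was fitted without the level filter alone. The unknown array background limits what the low levels of Fut7, Fut4 and Gcnt1 can show.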
